A study of Homo sapiens with 6 samples.

Results

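The genes described here are 34 members of the amino acid response that the transcription factor ATF4 drives, together with the cytosolic aminoacyl-tRNA synthetases that belong to it. They were taken from a list of symbols, and each gene was read on the probe set that is annotated to it alone and has the highest mean over the 6 arrays. Of the 34 genes 33 have such a probe set, out of 19775 genes on the array, and all 33 were among the 12078 genes bright enough to test. Probe sets of MARS1, the methionyl-tRNA synthetase, are also annotated to the microRNA gene MIR6758, so no value is given for it.

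RNA came from ARP1, OCI-MY5 and OPM2, established human lines of multiple myeloma, a tumour of antibody-secreting plasma cells. Cells of each line were grown in RPMI-1640 with serum and antibiotics, received no drug and carry no engineered allele per the labels, and were sorted by flow cytometry into CD24+ and CD24− fractions. The submitters set the CD24+ cells, which they regard as stem-like, against the CD24− cells. Each fraction of each line was hybridised to 1 Affymetrix Human Genome U133 Plus 2.0 array, so each line has 2 arrays and each fraction 3. Values are MAS5 intensities, a linear brightness that the submitters scaled per array. Levels are compared between arrays on the same probe set and never between genes. Differences are given on the log2(intensity + 16) scale, which understates changes of dim genes. The adjusted p-values are limma's with Benjamini-Hochberg adjustment over all 12078 genes, and a difference is called where the adjusted p is below 0.05.

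When a cell runs short of an amino acid, uncharged tRNA activates the kinase GCN2, and stress in the endoplasmic reticulum activates the kinase PERK. Both phosphorylate the initiation factor eIF2α, which slows translation in general but favours translation of the ATF4 mRNA. ATF4 then pairs with C/EBP proteins on composite DNA elements and raises genes for amino acid synthesis, uptake and tRNA charging. Plasma cells make antibody in bulk and place a heavy load on both amino acid supply and the endoplasmic reticulum. Since ATF4 is regulated largely at translation, an mRNA array does not read its activity.

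The core of that composite element, TGATGNAA, was found within the promoter windows of 11 of the 28 members that have one in the RefSeq table of GRCh38.p14. A window spans 250 bases before to 50 after a transcription start, both strands were searched, and no other motif was searched. By window the motif was in 25.6% of the 43 windows of members and in 3.62% of the 35116 windows of all genes. Members were listed partly because they are known ATF4 targets, so this share is not independent of their choice. Of the 10 synthetases with a window, 7 hold the motif. Each stretch of 30 bases shown here is written along the gene's strand with the motif, or its reverse complement TTNCATCA, in capitals, because these are the members for which the files show a candidate site:
ASNS (chr7:97872458-97872487, minus strand): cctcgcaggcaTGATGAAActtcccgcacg
CHAC1 (chr15:40953251-40953280, plus strand): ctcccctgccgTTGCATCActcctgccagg
SLC3A2 (chr11:62881719-62881748, plus strand): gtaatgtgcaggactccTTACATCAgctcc
SLC7A1 (chr13:29595663-29595692, minus strand): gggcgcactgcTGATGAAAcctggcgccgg
AARS1 (chr16:70289675-70289704, minus strand): ttttctcgcagTTGCATCAgccaagttaga
CARS1 (chr11:3057407-3057436, minus strand): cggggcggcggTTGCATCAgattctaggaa
GARS1 (chr7:30594834-30594863, plus strand): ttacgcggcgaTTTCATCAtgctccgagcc
IARS1 (chr9:92293692-92293721, minus strand): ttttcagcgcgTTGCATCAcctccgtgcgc
MARS1 (chr12:57488053-57488082, plus strand): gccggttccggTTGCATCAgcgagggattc
NARS1 (chr18:57621804-57621833, minus strand): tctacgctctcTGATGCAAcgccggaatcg
TARS1 (chr5:33440956-33440985, plus strand): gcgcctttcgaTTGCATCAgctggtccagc
The 8 letters are the same, read on either strand, in AARS1, CARS1, CHAC1, IARS1, MARS1, NARS1 and TARS1, and they are the same among ASNS, GARS1 and SLC7A1. Counting the start base as 0, the motif begins at −209 in CHAC1, −187 in AARS1 and −68 in ASNS. In the other synthetases and the transporters it begins between −33 in GARS1 and 37 in SLC3A2. A match describes letters in a window and is not evidence of binding, and a window without a match says nothing about ATF4.

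All 8 plasma cell markers listed were bright enough to test, the dimmest being SLAMF7 in OCI-MY5 at 257 and 317, and their intensities summed to 48967 to 115405 per array. Sums over the markers of other cells, which are other probe sets in other numbers, ran from 158 to 615 for B cells (3 genes, led by PAX5), 82.6 to 306 for T cells (4 genes), 54.9 to 304 for monocytes (3 genes) and 329 to 549 for stromal cells (4 genes). The erythroid gene HBB read 2298 (CD24+) and 1792 (CD24−) in OPM2 and 76.2 to 225 elsewhere, while the erythroid enzyme ALAS2 was at 3.48 to 87.7 on every array. The part of HBB transcripts in the OPM2 results was not tested. CD24 itself lay near background in both fractions, at 3.35 to 99.2, and gave no check of the sort. The OPM2 CD24+ array stood apart in its median intensity, 135 against 68.9 to 84.0 on the others, and in its bacterial spike-in controls, with a geometric mean of 37362 against 6175 to 7399. The ratio of the 3′ to the 5′ ACTB probe set, which grows with shorter RNA, was lowest in ARP1, at 2.63 and 2.47 (CD24+ and CD24−). It was 9.36 and 23.2 in OCI-MY5 and 27.1 and 7.54 in OPM2. The same ratio for GAPDH was 1.27 and 1.27 in ARP1, 2.34 and 5.16 in OCI-MY5, and 5.98 and 1.52 in OPM2. This sign of RNA quality thus set ARP1 apart and also differed between the fractions of OCI-MY5 and of OPM2, in opposite directions. Its part in the line differences and in the fraction differences was not tested. Differences of called members in OPM2 are also given without the OPM2 CD24+ array, for most members in a paragraph of their own. The bulk RNA of a fraction cannot separate fewer expressing cells from less RNA per cell. The labels name no repeated cultures, so p-values measure only the spread between these arrays, which may be partly technical.

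The members differed far more by line than by CD24 fraction. Line took 90.9% of the sum of squares of the median member and fraction 2.76%, against 77.5% and 4.76% for the median of all genes tested. Between OPM2 and ARP1 11 of the 33 members were called, 2 higher and 9 lower in OPM2, where 25% of all genes tested were called (10.1% higher and 14.8% lower). Between OPM2 and OCI-MY5 12 were called, 6 higher and 6 lower in OPM2, where 26.1% of all genes were (11.4% higher and 14.7% lower). Between OCI-MY5 and ARP1 1 member was called, PHGDH, which was lower in OCI-MY5, and 2.62% of all genes were called (0.836% higher and 1.78% lower). At least 2-fold apart, whatever the test, were 7 members for OPM2 minus ARP1 (26.8% of all genes), 11 for OPM2 minus OCI-MY5 (28.3%) and 3 for OCI-MY5 minus ARP1 (12.2%). Counting any of these comparisons 16 members were called, or 48.5%, beside 34.6% of all genes. The comparisons share arrays, so a gene off in OPM2 enters both of those with OPM2. The median member differed by −0.10 for OPM2 minus ARP1, 0.09 for OPM2 minus OCI-MY5 and −0.28 for OCI-MY5 minus ARP1, where the median gene differed by −0.04, −0.0017 and −0.04.

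**Figure D1:**
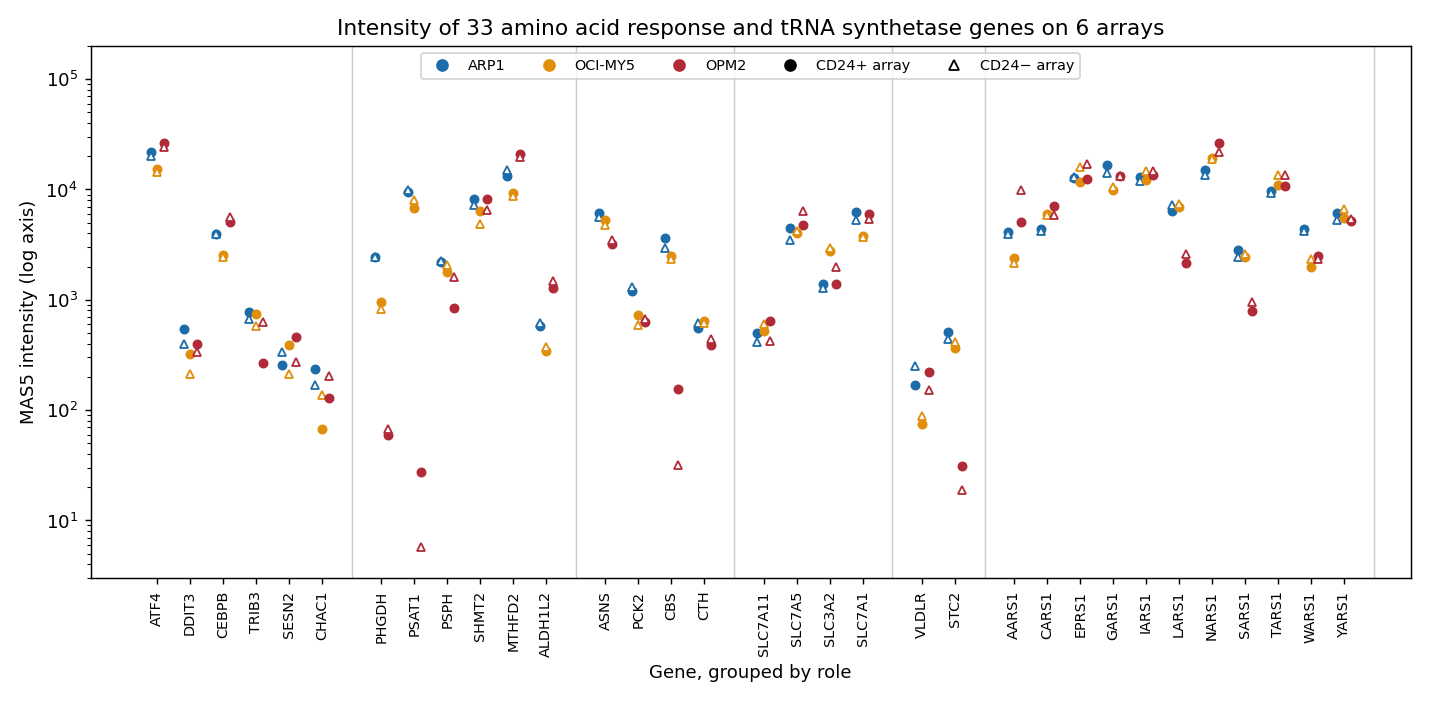
MAS5 intensity (log axis) of members on each of the 6 arrays, with 1 point per array, coloured by line, circles for CD24+ and open triangles for CD24−, and genes grouped by role. PHGDH, PSAT1, CBS and STC2 sit far lower on both OPM2 arrays than on the other 4, while the ATF4 arrays span only 14487 to 26224.

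These counts lean on single arrays and on scaling. Leaving out an array leaves its line with 1, so the spread then comes only from the other lines, and a count can rise for that reason. Without the ARP1 CD24+ or CD24− array 3 or 5 members were called between OPM2 and ARP1, without either OCI-MY5 array 7, and without the OPM2 CD24+ array 11. Between OPM2 and OCI-MY5 the count was 6 without the OCI-MY5 CD24+ array, 5 without its CD24− array and 10 without the OPM2 CD24+ array. Without any single ARP1 or OCI-MY5 array 0 members were called between those lines, and 4 without either OPM2 array. Centring each array on its median moved the median of all genes from −0.04 to −0.30 for OPM2 minus ARP1 and from −0.0017 to −0.40 for OPM2 minus OCI-MY5. The share of all called genes that were higher in OPM2 then dropped from 40.6% to 22.1% against ARP1 and from 43.5% to 22.5% against OCI-MY5. Among members, centring left 0 higher and 6 lower against ARP1, and 1 higher, ALDH1L2, and 6 lower against OCI-MY5. Quantile normalization raised the share of calls higher in OCI-MY5 than in ARP1 from 32.0% to 43.2%.

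Without its CD24+ array OPM2 keeps 1 array, so the spread in that fit comes only from the ARP1 and OCI-MY5 arrays. Keeping a call there is therefore no check of it, and the differences are given instead. The calls of ATF4, NARS1 and VLDLR were lost. In that fit OPM2 differed from ARP1 by −6.12 for CBS, −3.81 for STC2, −1.37 for LARS1, −1.45 for SARS1, −0.77 for ASNS, −0.89 for PCK2 and −0.86 for WARS1. It differed from OCI-MY5 by −5.68 for CBS, −3.53 for STC2, −1.44 for LARS1, −1.40 for SARS1, 1.17 for CEBPB, 1.15 for MTHFD2, 2.12 for AARS1 and 0.79 for VLDLR. Of these, CBS, STC2, WARS1, CEBPB and AARS1 were further apart without the array than with it. LARS1, SARS1, ASNS, PCK2, MTHFD2 and VLDLR were closer.

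Other single arrays also ended calls, in limma's fit over all genes. Without either ARP1 array the calls against ARP1 were lost for ALDH1L2, ASNS, PCK2, LARS1, NARS1 and WARS1, and without its CD24+ array also for CBS and SARS1 (adjusted p of 0.0536 to 0.205 over these). ASNS, PCK2, NARS1 and WARS1 lost them as well without either OCI-MY5 array (0.0585 to 0.106). Without either OCI-MY5 array the calls against OCI-MY5 were lost for ATF4, CEBPB, MTHFD2, VLDLR, AARS1 and SARS1, and without its CD24− array also for LARS1 (0.0506 to 0.206). ATF4, VLDLR and AARS1 lost them without either ARP1 array too (0.0679 to 0.0815). The call of PHGDH between OCI-MY5 and ARP1 was lost without any array of those lines (0.169 to 0.274). With fraction as a term of the fit 8 members were called against ARP1 and 10 against OCI-MY5, and the calls of ASNS (adjusted p = 0.0529), WARS1 (0.0571), NARS1 (0.0632), ATF4 (0.0529), VLDLR (0.0822) and PHGDH between OCI-MY5 and ARP1 (0.0821) were lost.

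ATF4, the transcription factor at the head of the response, read 21761 and 20198 on the CD24+ and CD24− arrays of ARP1, 15399 and 14487 on those of OCI-MY5, and 26224 and 24140.1 on those of OPM2. The lines did not overlap, with OPM2 highest and OCI-MY5 lowest. OPM2 exceeded OCI-MY5 by 0.75 (log2, SE 0.17, limma adjusted p = 0.0317; 0.69 and adjusted p = 0.0535 without the OPM2 CD24+ array). The difference of OPM2 from ARP1 was 0.26 (SE 0.17, adjusted p = 0.304), and that of OCI-MY5 from ARP1 was −0.49 (SE 0.17, adjusted p = 0.173).

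CEBPB, the C/EBP factor that dimerises with ATF4, followed the same order of lines. It read 3936 and 3958 in ARP1, 2529 and 2453 in OCI-MY5, and 5118 and 5612 in OPM2, again without overlap. OPM2 exceeded OCI-MY5 by 1.10 (log2, SE 0.17, limma adjusted p = 0.0106) and ARP1 by 0.44 (SE 0.17, adjusted p = 0.113).

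DDIT3, the stress factor CHOP, which ATF4 induces, passed in no comparison of lines. Its intensities were 541 and 396 in ARP1, 325 and 213 in OCI-MY5, and 399.6 and 336 in OPM2, so that within every line the CD24+ array was the brighter. Of the other regulators TRIB3, a pseudokinase that restrains ATF4, ran from 267 to 778, SESN2, an inhibitor of mTORC1 signalling, from 211 to 464, and CHAC1, which degrades glutathione, from 67.4 to 234, and none was called. All 6 regulators had a lower mean in OCI-MY5 than in ARP1, by −0.93 to −0.02, and none of these differences was called.

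The most extreme values lay in the serine pathway, which draws 3-phosphoglycerate out of glycolysis. PHGDH, its first enzyme, read 2430.2 and 2451 in ARP1, 958 and 819 in OCI-MY5, and 59.5 and 67.7 in OPM2. The lines were fully separated in that order. OPM2 differed from ARP1 by −4.95 (log2, SE 0.18, limma adjusted p = 0.000493) and from OCI-MY5 by −3.50 (SE 0.18, adjusted p = 0.000748). OCI-MY5 differed from ARP1 by −1.45 (SE 0.18, adjusted p = 0.0345).

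PSAT1, the aminotransferase of the next step, showed the largest difference of any member. Its intensities were 9555 and 9945 in ARP1, 6816 and 7947 in OCI-MY5, and 27.4 and 5.78 in OPM2. Against ARP1 the difference in OPM2 was −8.31 (log2, SE 0.35, limma adjusted p = 0.000557) and against OCI-MY5 it was −7.91 (SE 0.35, adjusted p = 0.000604), while ARP1 and OCI-MY5 differed by only −0.40 (SE 0.35, adjusted p = 0.557). Its other probe set read 2223 and 2040.1 in ARP1, 350.6 and 800.1 in OCI-MY5, and 187 and 12.5 in OPM2, lower in OPM2 by −4.82 and −2.85 against the same lines. There OCI-MY5 differed from ARP1 by −1.97, so the size of that difference depends on the probe set. On both OPM2 arrays PHGDH and PSAT1 lay within 2.23 to 96.4, the range of the control probe sets for the bacterial transcript TrpnX, which is not spiked in. On these probe sets the OPM2 levels thus cannot be told from background, although the other PSAT1 probe set lay above that range on the OPM2 CD24+ array. The size of the differences depends on the added 16: against ARP1 they were −5.24 for PHGDH and −9.46 for PSAT1 with 1 added, and −4.30 and −6.94 with 64. Without the OPM2 CD24+ array the differences from ARP1 were −4.87 for PHGDH and −8.81 for PSAT1.

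The 250 bases upstream of each start are printed for these consecutive enzymes of serine synthesis, both called lower in OPM2 than in either other line, with CpG pairs in capitals (RefSeq, GRCh38.p14, plus strand). PHGDH has 11 CpG pairs there and PSAT1 30.
PHGDH (chr1:119711684-119711933): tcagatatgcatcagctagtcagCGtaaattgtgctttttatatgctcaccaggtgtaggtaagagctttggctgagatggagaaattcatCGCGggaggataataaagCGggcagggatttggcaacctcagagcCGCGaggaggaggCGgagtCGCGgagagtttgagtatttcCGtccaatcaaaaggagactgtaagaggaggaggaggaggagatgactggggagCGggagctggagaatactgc
PSAT1 (chr9:78296875-78297124): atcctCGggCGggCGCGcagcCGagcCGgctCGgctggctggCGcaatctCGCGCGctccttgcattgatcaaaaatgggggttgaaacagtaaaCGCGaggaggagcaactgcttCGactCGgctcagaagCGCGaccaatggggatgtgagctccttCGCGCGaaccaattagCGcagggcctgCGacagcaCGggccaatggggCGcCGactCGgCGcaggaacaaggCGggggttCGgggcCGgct
Over whole windows of 300 bases PHGDH has 15 CpG pairs and PSAT1 37, beside a median of 14 and quartiles of 4 and 28 over all windows. Neither window holds TGATGNAA, and DNA methylation was not measured.

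PSPH, the phosphatase that completes serine synthesis, was not called. It read 2194 and 2267 in ARP1, 1799.8 and 2072 in OCI-MY5, and 842 and 1607 in OPM2, a difference of −0.93 (SE 0.33, limma adjusted p = 0.102) between OPM2 and ARP1. Another bright probe set ran the opposite way, at 1867 and 2829 in OPM2 against 619 to 984 elsewhere, so the direction for PSPH is uncertain.

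Of the mitochondrial enzymes that take serine into the folate cycle, none was called lower in OPM2 on its brightest probe set. SHMT2, which splits serine into glycine and a folate-bound carbon unit, ran from 4845 to 8246 and was not called. MTHFD2, the dehydrogenase and cyclohydrolase that follows, read 13271 and 15002 in ARP1, 9281 and 8668 in OCI-MY5, and 20904.5 and 19859 in OPM2. OPM2 exceeded OCI-MY5 by 1.18 (log2, SE 0.17, limma adjusted p = 0.00991) and ARP1 by 0.53 (SE 0.17, adjusted p = 0.0819). Another probe set of MTHFD2 differed the other way, by −0.43 from OCI-MY5 and −1.97 from ARP1, and the direction is therefore uncertain.

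ALDH1L2, which oxidises mitochondrial formyl folate to CO2, had the lowest adjusted p of the members that were higher in OPM2. It read 576 and 623 in ARP1, 342 and 373 in OCI-MY5, and 1286 and 1483 in OPM2. The lines did not overlap, and OPM2 exceeded ARP1 by 1.18 (log2, SE 0.18, limma adjusted p = 0.0116) and OCI-MY5 by 1.90 (SE 0.18, adjusted p = 0.00304). The comparison with OCI-MY5 also passed with each array centred, but that with ARP1 did not (0.92, adjusted p = 0.189), nor without the ARP1 CD24+ or CD24− array (adjusted p = 0.0897 and 0.0766). Without the OPM2 CD24+ array both differences were larger, at 1.29 and 2.01.

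Of the enzymes of transsulfuration, which builds cysteine from homocysteine and serine, CBS was called and CTH was not. CBS, the first enzyme, read 3667 and 2972 in ARP1, 2482 and 2359.6 in OCI-MY5, and 155 and 31.6 in OPM2. It was lower in OPM2, by −5.20 against ARP1 (log2, SE 0.60, limma adjusted p = 0.00564) and by −4.75 against OCI-MY5 (SE 0.60, adjusted p = 0.00664). Its OPM2 CD24− value lay within the TrpnX range and its CD24+ value above it. Other probe sets of CBS were also lower in OPM2, by −4.55 and −2.49 against ARP1. CTH, the second enzyme, read 549.8 and 614 in ARP1, 639.8 and 620.4 in OCI-MY5, and 393 and 444 in OPM2. OPM2 was lowest without overlap, but the differences were −0.46 and −0.58 and did not pass (limma adjusted p = 0.115 against ARP1 and 0.0684 against OCI-MY5). The other probe set of CTH, which was not tested, was lower in OPM2 by −1.80 and −2.01 in the same order. It read 11.4 and 118 in OPM2, the former inside the TrpnX range.

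ASNS, asparagine synthetase and the classic amino acid response gene, read 6176 and 5669 in ARP1, 5319.7 and 4813 in OCI-MY5, and 3219 and 3474 in OPM2. OPM2 was lowest, by −0.82 against ARP1 (log2, SE 0.17, limma adjusted p = 0.0274) and by −0.60 against OCI-MY5 (SE 0.17, adjusted p = 0.061). PCK2, the mitochondrial enzyme that makes phosphoenolpyruvate, read 1203 and 1308 in ARP1, 722 and 592 in OCI-MY5, and 634 and 671 in OPM2. ARP1 stood above the other lines, which overlapped. OPM2 differed from ARP1 by −0.93 (log2, SE 0.19, limma adjusted p = 0.0244), and OCI-MY5 from ARP1 by −0.92 (SE 0.19, adjusted p = 0.0714).

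**Figure D2:**
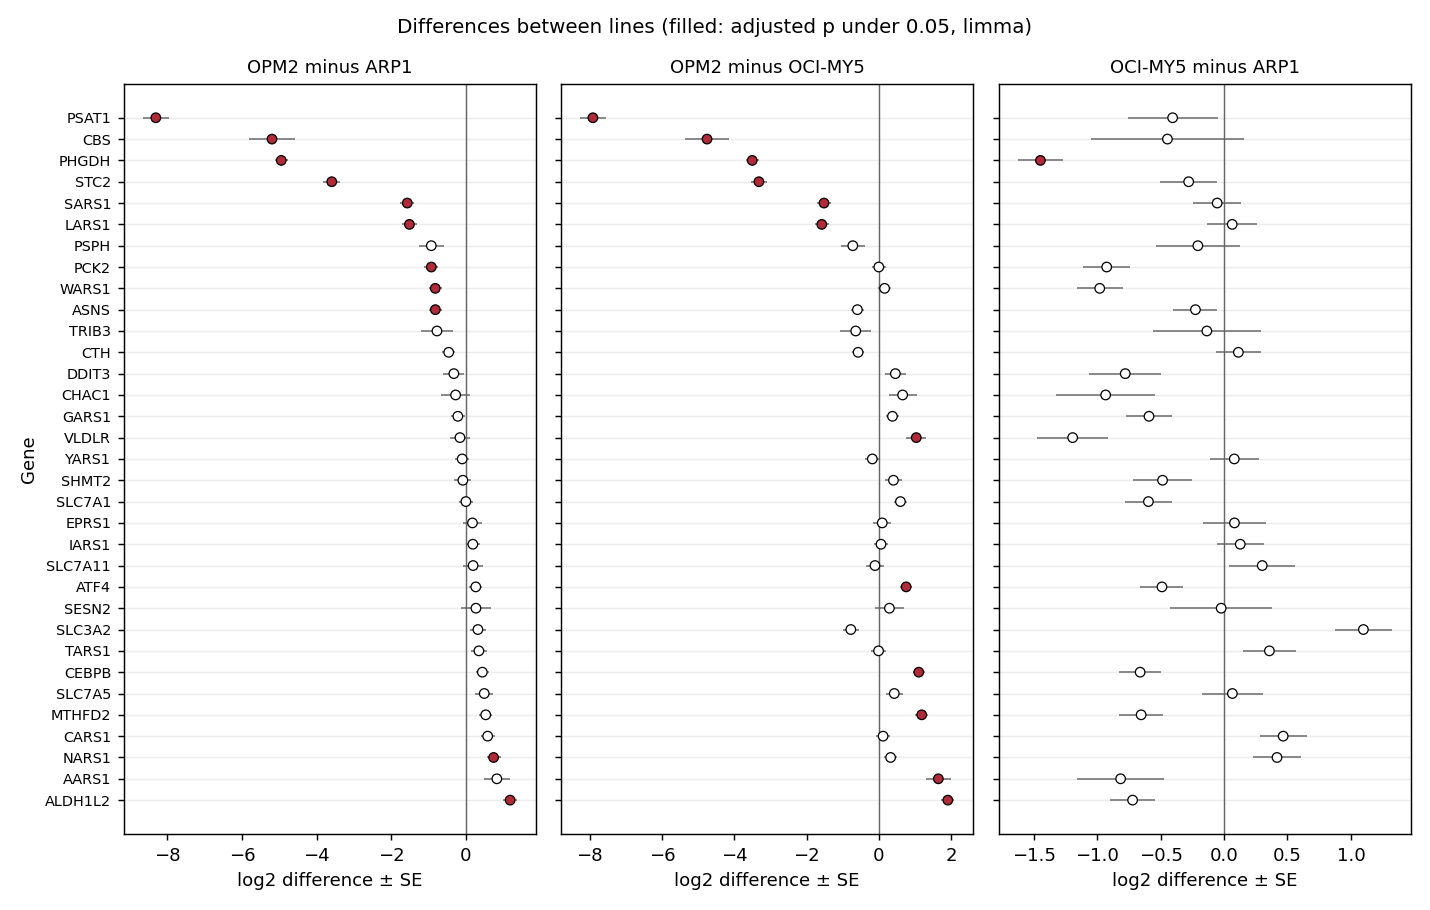
Log2 difference of each member between lines, on the log2(intensity + 16) scale, with bars of 1 SE from limma and filled points where the adjusted p is below 0.05. PSAT1, CBS, PHGDH and STC2 lie far below 0 in both comparisons with OPM2, and OCI-MY5 minus ARP1 has PHGDH as its only called member.

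None of the 4 amino acid transporters was called in any comparison of lines. SLC7A11, the cystine importer, ran from 412 to 639, and SLC7A5, the importer of large neutral amino acids, from 3451 to 6427. SLC3A2, the heavy chain that both need at the membrane, was highest in OCI-MY5 without overlap, at 2758 and 2963 against 1273 to 1964 elsewhere. It exceeded ARP1 there by 1.10 (log2, limma adjusted p = 0.0719). SLC7A1, an importer of arginine and lysine, was lowest in OCI-MY5, at 3813 and 3729.7 against 5234 to 6222.

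STC2, a secreted glycoprotein induced by ATF4, was a further gene with low values in OPM2. It read 514 and 440.2 in ARP1, 369 and 410.3 in OCI-MY5, and 31.2 and 19.0 in OPM2, both OPM2 values inside the TrpnX range. Its other probe set read 6.77 and 108 in OPM2, the latter above that range, and 205 to 409.9 in the other lines. OPM2 differed from ARP1 by −3.60 (log2, SE 0.22, limma adjusted p = 0.0011) and from OCI-MY5 by −3.32 (SE 0.22, adjusted p = 0.00139). With 1 or 64 added in place of 16 the difference from ARP1 was −4.23 or −2.60. VLDLR, a lipoprotein receptor, read 170.4 and 249.7 in ARP1, 75.3 and 87.9 in OCI-MY5, and 219.8 and 152 in OPM2. Its call in OPM2 against OCI-MY5 was marginal, at 1.03 (log2, SE 0.28, limma adjusted p = 0.0497), was lost in 13 of 14 other settings, and rests on OCI-MY5 values inside the TrpnX range.

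The aminoacyl-tRNA synthetases load each amino acid on its tRNA. Of 11 with a value 1 was called higher and 3 lower in OPM2 than in ARP1, and 1 higher and 2 lower than in OCI-MY5. Of all genes tested 25% were called against ARP1 (10.1% higher and 14.8% lower) and 26.1% against OCI-MY5 (11.4% and 14.7%). The counts of synthetases were not tested against these shares. LARS1, the leucyl enzyme, read 6343 and 7306 in ARP1, 6903 and 7346 in OCI-MY5, and 2149.98 and 2616 in OPM2. Both OPM2 arrays lay far below the rest. OPM2 differed from ARP1 by −1.51 (log2, SE 0.19, limma adjusted p = 0.00753) and from OCI-MY5 by −1.58 (SE 0.19, adjusted p = 0.00622), and the 3 other probe sets of LARS1 had the same direction.

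SARS1, the seryl enzyme, gave a like pattern. It read 2806 and 2455 in ARP1, 2448 and 2611 in OCI-MY5, and 799 and 950.2 in OPM2, which was lowest without overlap. The difference of OPM2 was −1.57 from ARP1 (log2, SE 0.19, limma adjusted p = 0.0062) and −1.52 from OCI-MY5 (SE 0.19, adjusted p = 0.00632). WARS1, the tryptophanyl enzyme, which interferon also induces, instead stood high in ARP1 alone. It read 4382 and 4187 in ARP1, 1984 and 2362 in OCI-MY5, and 2472 and 2359.6 in OPM2, so that the latter lines overlapped. OPM2 differed from ARP1 by −0.82 (log2, SE 0.18, limma adjusted p = 0.0302), and OCI-MY5 from ARP1 by −0.98 (SE 0.18, adjusted p = 0.0638).

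AARS1, the alanyl enzyme, read 4098 and 3911 in ARP1, 2379.6 and 2164 in OCI-MY5, and 5106 and 9915 in OPM2, where the fractions differed most. OPM2 exceeded OCI-MY5 by 1.64 (log2, SE 0.34, limma adjusted p = 0.0253) and ARP1 by 0.83 (SE 0.34, adjusted p = 0.137). NARS1, the asparaginyl enzyme, read 15095 and 13650.5 in ARP1, 19346 and 19015 in OCI-MY5, and 26471 and 21747 in OPM2. OPM2 exceeded ARP1 by 0.74 (log2, SE 0.19, limma adjusted p = 0.0441), or by 0.60 (adjusted p = 0.0731) without the OPM2 CD24+ array. The enzymes for cysteine (CARS1), glutamate and proline (EPRS1), glycine (GARS1), isoleucine (IARS1), threonine (TARS1) and tyrosine (YARS1) were called in no comparison.

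The 10 tested members with the motif differed between OPM2 and ARP1 by −0.82 to 0.83, and 2 were called, 1 in each direction. The 17 whose windows lack it spanned −8.31 to 0.53, and 7 were called, all lower in OPM2 (25% of all genes were called). Between OPM2 and OCI-MY5 1 member with the motif was called, higher in OPM2, and 9 without it, 4 higher and 5 lower (26.1% of all genes). No test was made of this split, whose groups differ in the kind of gene they hold.

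By order of lines OPM2 was lowest without overlap for 9 members (27.3%, beside 25.3% of all genes tested) and highest for 7 (21.2%, beside 21.3%). OCI-MY5 was lowest for 10 (30.3%, beside 14.7%) and highest for 2, CTH and SLC3A2 (6.06%, beside 16.2%). ARP1 was highest for 9 (27.3%, beside 17.2%) and lowest for 4 (12.1%, beside 13.6%). These shares describe the values and were not tested.

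**Figure D3:**
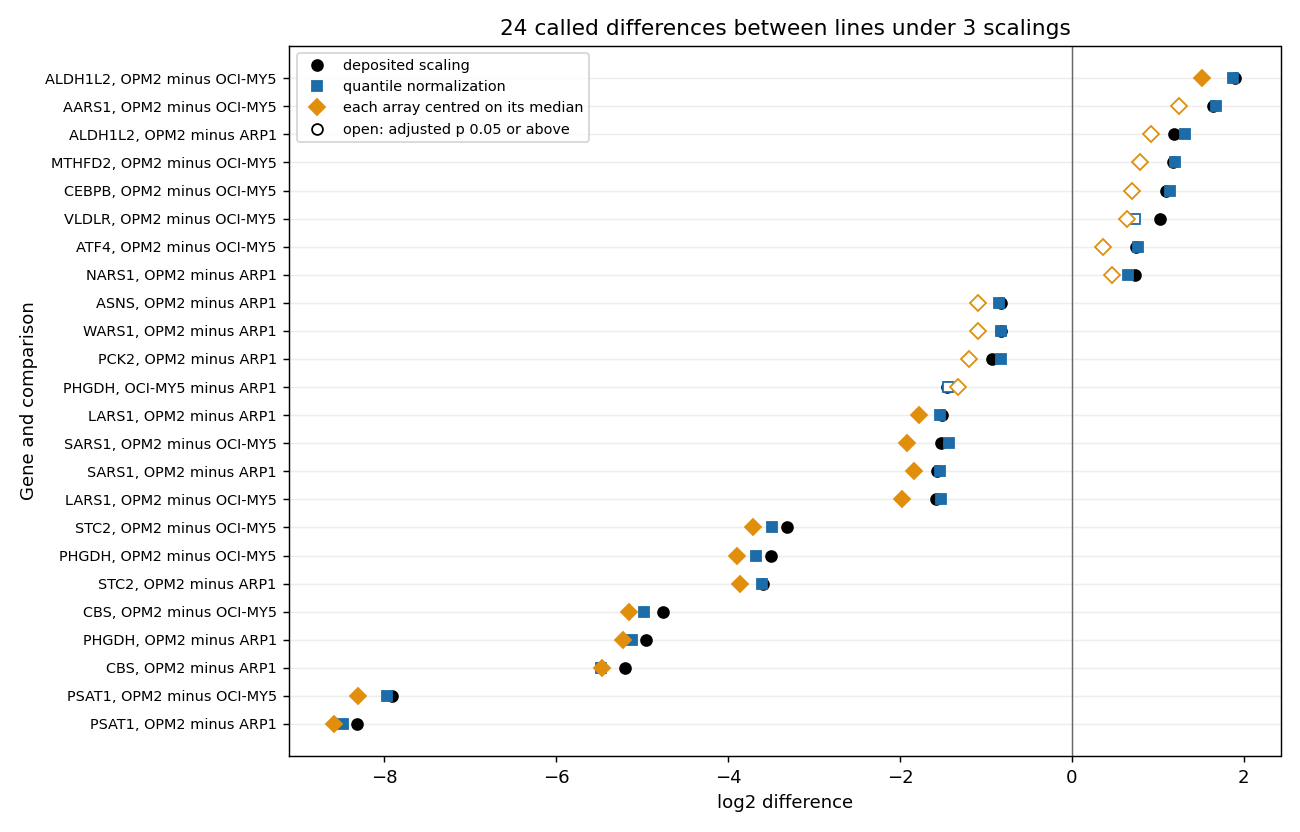
Log2 differences of the 24 called member comparisons between lines (x axis) under the deposited scaling, quantile normalization and centring of each array on its median, with open symbols where the adjusted p is 0.05 or above. Centring shifts every member down in both comparisons with OPM2, and PSAT1, CBS, PHGDH and STC2 stay far below 0 under each scaling.

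Between the CD24+ and CD24− fractions 0 of the 33 members were called by limma, nor was any of the 12078 genes (0%). Without adjustment 149 genes had a p below 0.05, none of them a member. With the cell line as a block 0 members were called as well, with 560 genes below 0.05 unadjusted and a lowest adjusted p of 0.847 over all genes. The design pairs the fractions within lines but has 1 array for each, so no value within a single line can be checked against a repeat. Within ARP1 the median member differed by 0.11, with 21 of 33 higher in CD24+ cells (51.4% of all genes tested were). Within OCI-MY5 it differed by −0.04, with 16 higher (54% of all genes), and within OPM2 by −0.08, with 14 higher (53.8% of all genes). At least 2-fold apart were 0 members in ARP1 and 0 in OCI-MY5, beside 5.07% and 5.72% of all genes tested. In OPM2 there were 2, TRIB3 and CBS (6.06%, beside 18.2%). TRIB3 was lower in the CD24+ cells of OPM2, at 267 against 634, and higher in those of the other lines, at 778 against 665 in ARP1 and 740.3 against 577 in OCI-MY5.

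The same direction in all 3 lines was seen for 11 members (33.3%, beside 29.1% of all genes tested). On the probe set chosen for each gene, ATF4, DDIT3, SHMT2, CBS, SLC7A1, CARS1 and NARS1 were higher in CD24+ cells. Lower were PSPH, ALDH1L2, EPRS1 and LARS1. Ranked by the smallest of the 3 differences DDIT3 came first, with values of 0.44 for ARP1, 0.57 for OCI-MY5 and 0.24 for OPM2 (mean 0.42 ± 0.17, SD, n = 3 lines). SHMT2 came next by that ranking, at 0.30 ± 0.11 over 3 lines, and read 8246 and 7300.5 in ARP1, 6341 and 4845 in OCI-MY5, and 8206 and 6535 in OPM2. The dimmest probe set of SHMT2 was also higher in CD24+ cells of each line. The remaining one was higher in those of ARP1 and OCI-MY5 but lower in those of OPM2, at 1150 against 2663. ATF4 was higher by only 0.10 ± 0.02. CBS was higher by 0.74 ± 0.97, nearly all of it from OPM2, where the difference was 1.85 between dim values. ALDH1L2 was lower in CD24+ cells, at −0.14 ± 0.05, and LARS1 at −0.19 ± 0.10. Another probe set of each ran the opposite way in all 3 lines, so both directions are uncertain. That of LARS1 read 3843 (CD24+) against 3636 (CD24−) in ARP1, 4502 against 4367 in OCI-MY5 and 2035 against 1451 in OPM2. That of ALDH1L2 was dim, at 9.96 to 222. Other probe sets of CBS, SLC7A1, CARS1, PSPH and EPRS1 also ran against the direction named, in some lines, so these directions are uncertain too. In OCI-MY5, for example, that of CBS read 1438 (CD24+) against 1572 (CD24−) and that of CARS1 805 against 1031. ATF4, DDIT3 and NARS1 have no other probe set to compare. Centring turns SHMT2 to −0.034 and ATF4 to −0.23, and the OPM2 CD24+ array has the highest median. Of the 11 synthetases 9 were higher in the CD24+ cells of ARP1, while 8 were lower in those of OCI-MY5 and 8 in those of OPM2.

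**Figure D4:**
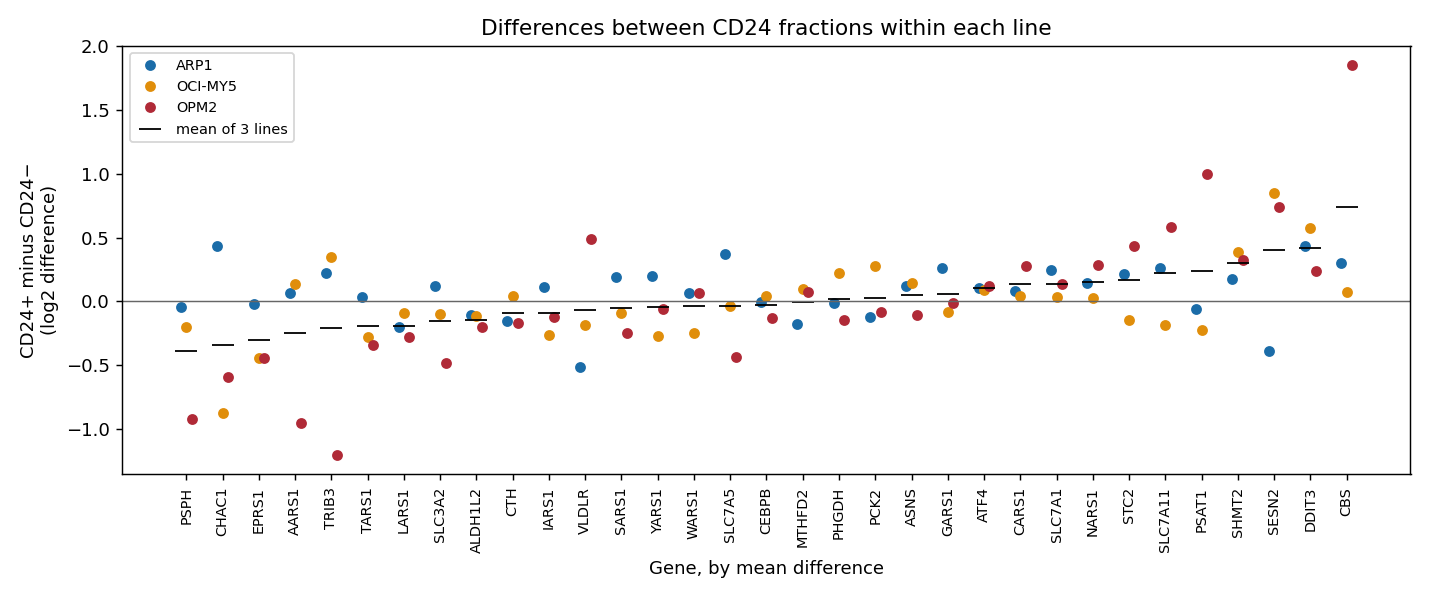
Log2 difference CD24+ minus CD24− of each member within ARP1, OCI-MY5 and OPM2, with 1 point per line from 1 array per fraction and a bar at the mean of the 3 lines. Most points lie within 1 log2 unit of 0, and TRIB3 and CBS in OPM2 are the only ones beyond it.

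Of cytosolic synthetases and cofactors outside the 34 genes, 11 were listed and 7 tested, and 2 were called in some comparison of lines. Of all 12078 genes 34.6% were called in at least 1 comparison of lines. For genes of this and the following lists no value is given without single arrays, under other scalings or on other probe sets. How far their calls hold was therefore not tested. RARS1, the arginyl enzyme, read 2914 and 3546 in ARP1, 5168 and 5394 in OCI-MY5, and 1065 and 1023 in OPM2. OPM2 was lowest, by −1.61 against ARP1 and −2.32 against OCI-MY5 (limma adjusted p = 0.00546 and 0.00202). HARS1, the histidyl enzyme, was lower in OPM2 by −1.31 and −1.45 (limma adjusted p = 0.0178 and 0.0128). Of 15 mitochondrial synthetases tested 4 were called (34.6% of all genes). YARS2, the tyrosyl enzyme, was lower in OPM2 by −1.22 against ARP1 and −0.83 against OCI-MY5, and HARS2, the histidyl enzyme, by −0.97 and −1.12. WARS2 was lower in OPM2 by −2.31 against OCI-MY5, while its difference of −1.57 from ARP1 did not pass (limma adjusted p = 0.0957). It read 52.0 and 203 in OPM2, the CD24+ value inside the TrpnX range, and 340 to 615 in the other lines. RARS2, the arginyl enzyme, was higher in OPM2 by 1.10 and 0.78.

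Upstream of ATF4, 5 of 15 genes of eIF2α signalling were called in some comparison of lines (34.6% of all genes). EIF2AK3, which encodes PERK, read 2795 and 2438 in ARP1, 3229 and 2058 in OCI-MY5, and 4977 and 7276 in OPM2. It was higher in OPM2 by 1.20 and 1.22 (limma adjusted p = 0.0474 and 0.0445), and EIF2AK4, which encodes GCN2, was not called. Both adjusted p-values of EIF2AK3 lie close to 0.05, and, as for every gene of these lists, no value without single arrays is given. EIF2AK1, the haem-regulated kinase, was lower in OPM2 by −1.29 against ARP1 and −1.11 against OCI-MY5. The eIF2B subunits EIF2B5 and EIF2B3 were lower as well, by −1.16 and −1.57 and by −1.47 and −1.22 in the same order.

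Of 15 tested further targets and partners of ATF4, 5 were called in some comparison of lines (34.6% of all genes). DDIT4, an inhibitor of mTORC1, was higher in OPM2 by 2.46 against ARP1 and 1.71 against OCI-MY5 (limma adjusted p = 0.00535 and 0.0129). ATF3, a stress-induced repressor, was highest in ARP1, with OPM2 lower by −1.82 and OCI-MY5 by −1.29. VEGFA, a growth factor for vessels, was lowest in OCI-MY5, which OPM2 exceeded by 1.61, and SLC1A5, a glutamine importer, was higher in OPM2 than in OCI-MY5 by 1.28.

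Of 10 tested genes of glycine cleavage and cytosolic folate use, 4 were called in some comparison of lines (34.6% of all genes). ALDH1L1, the cytosolic counterpart of ALDH1L2, was lower in OPM2 by −2.35 against ARP1 and −2.27 against OCI-MY5 (limma adjusted p = 0.00319 for each). GLDC, which cleaves glycine in mitochondria, was higher by 1.99 and 1.58 (limma adjusted p = 0.00362 and 0.00615). MTHFD1, the cytosolic folate enzyme, was lower by −0.89 and −0.94, and TYMS, thymidylate synthase, was higher than in ARP1 by 1.01.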

How the data were processed

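Per the labels' protocols, total RNA of the sorted fractions was labelled with biotin and hybridised to 1 array per sample. The deposited values are linear intensity, which the authors computed with MAS5 in Affymetrix Expression Console 1.1 per the submitters' processing notes. With 2% of values trimmed at either end, each array had a mean of 500.1, so each was scaled to 1 target. Scanner files and detection calls were not used here.

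Of 54675 probe sets 62 controls were left out, and 41091 have 1 symbol in the platform annotation, 1801 several and 11721 none. Each gene took its probe set with the highest mean, and genes with a mean log2 of at least 6.36, the median of probe sets, were tested on log2(intensity + 16) with limma 3.58.1 in R 4.3.3 (two-sided), checked on simulated data. In line comparisons both fractions of a line served as its replicates. The replicate number in the titles stands for the line, so the numbers pair the fractions by line. Deviations of same-numbered arrays from the group means correlated at 0.704, 0.706 and 0.768. A shared line gives such values, which cannot show whether both fractions came from 1 culture or 1 sort. The fraction test had no block, as the series' design text states no pairing, and the line as a block was the alternative.

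Values are given for every called member, ATF4, DDIT3 and up to 6 members of like direction between fractions, and for up to 4 called genes of each further list. Members, lists, motif and tests were chosen with earlier results of these data known. Alternatives changed the pseudocount, filter, scaling, probe set rule, prior variance and arrays, and added fraction as a term to the line comparisons.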

Additional observations from a re-analysis of the deposited data

How the results depend on the processing

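The precision is limited by 2 arrays per line and by a background that the deposited intensities do not mark. None of the 24 called differences of members reversed in any setting run. 8 of them, for PHGDH, PSAT1 and STC2 against both lines and for ALDH1L2 and CBS against OCI-MY5, kept the call in each setting run for them, and 16 lost it at least once. STC2 and VLDLR were not tested with the filter at the 75th percentile. In the settings without an OPM2 array the spread came only from the other lines, so a call kept there is no check of it. CBS against ARP1 lost it without the ARP1 CD24+ array alone (adjusted p = 0.0536). The cause was not tested in any of these cases.

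For OPM2 minus ARP1, 3018 genes were called, or 1430 without a filter on dim genes and 1867 with centring, and 7 and 6 members in place of 11. For OPM2 minus OCI-MY5, 3150 genes were called, or 1640 without the filter, and centring called 7 members in place of 12. For OCI-MY5 minus ARP1, 316 genes were called, or 163 and 747 with pseudocounts of 1 and 64, 0 without the filter, 1281 with the filter at the 75th percentile, 146 with centring, 137 with the mean of probe sets, 1375 with a trend in the prior variance and 6 with fraction as a term. The members called there, 1 by the chosen settings, were 4 with a pseudocount of 64, 7 with the filter at the 75th percentile and 8 with the trend, and 0 without the filter, with quantile normalization, with centring or with the fraction term.

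Leaving out 1 array at a time gave 705 to 4188 genes and 3 to 14 members for OPM2 minus ARP1, 931 to 4526 genes and 5 to 16 members for OPM2 minus OCI-MY5, and 0 to 1060 genes and 0 to 4 members for OCI-MY5 minus ARP1. Between fractions the count of members stayed at 0 in every setting run, the cell line as a replicate block included.

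Of the 6 fraction differences named, 5 turned in some setting. SHMT2 went to −0.034 and ATF4 to −0.23 with centring, and ALDH1L2 to 0.088 with the mean of probe sets. Without single arrays ALDH1L2 reached 0.29 and 0.39, LARS1 0.05, 0.06 and 0.35, ATF4 −0.10 and −0.07, and CBS −0.09 and −1.19. Such fits set unequal lines against each other. Over all fits without 1 array ALDH1L2 ranged from −0.64 to 0.39, LARS1 from −0.68 to 0.35, ATF4 from −0.10 to 0.32, CBS from −1.19 to 2.12 and DDIT3, which kept its direction, from 0.17 to 0.59. With centring DDIT3 was at 0.085.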
